A study of Schizosaccharomyces pombe with 8 samples.

Results

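The genes of RNA polymerase subunits and of translation factors were compared between zfs1-deficient and wild-type fission yeast, Schizosaccharomyces pombe. They were taken as all genes whose symbol begins with rpa, rpb, rpc, tif or tef followed by a digit, together with nuc1, and 48 of the 2899 genes with a symbol of their own on the array met this rule. Of these, 30 encode polymerase subunits and 18 encode translation factors. The study measured steady-state RNA in a strain with zfs1 deficiency and in a strain given only as wild type, with 4 replicate cultures of each, 1 array per culture. Cultures of both strains were in EMM, a minimal medium, with adenine, histidine, leucine, lysine and uracil added at 50 mg/l each, and were taken at an A600 of 1.0 and a temperature of 30 °C. The labels give no further alleles or markers for either strain. The title of the series names zfs1 as an mRNA-binding protein that lowers transcript stability, and the comparison asks which transcripts differ in steady-state level without it.

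RNA polymerase I transcribes the large ribosomal RNAs, RNA polymerase II the messenger RNAs, and RNA polymerase III the transfer RNAs and 5S ribosomal RNA. Each enzyme has a pair of large catalytic subunits of its own, a set of small subunits shared with the other enzymes, and a stalk and further peripheral subunits that act in initiation, elongation or termination. Translation begins when eIF2 carries the initiator tRNA to the small ribosomal subunit, and eIF2B recharges eIF2 with GTP after each round. The eIF3 complex and the cap-binding complex eIF4F bring the mRNA to the ribosome, and eEF1A, eEF3 and eIF5A drive elongation.

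All 48 genes gave a value on all 8 arrays. Signals are given on the log2 scale, and a difference is zfs1-deficient minus wild type on that scale. The base of the deposited logarithm was inferred from the values, so every log2 value and ratio below rests on that reading. The reporter controls, taken as background, reached at most 4.65 to 5.75 per array, and the lowest value of any member, for rpb9, was 8.34. The zfs1 transcript averaged 4.14 ± 0.45 in zfs1-deficient cultures and 10.51 ± 0.10 in wild-type cultures (SD, n = 4 each), so no array went against its label. Replicate 4 of each strain stood apart from its 3 companions, and the counts of calls, and the genes it touches most, are given with and without both replicate 4 arrays. The numbers in the labels were taken to pair the cultures across the strains, so a fit with the replicate number as a block is given beside the unblocked fit wherever it changes a call.

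Few of these genes differed between the strains without the block, and those that did were lower in the zfs1-deficient strain. Of the 48 members, 2 fell and 0 rose (limma, Benjamini-Hochberg adjusted p under 0.05), while 2.21% of all tested probe sets were called lower and 3.56% higher. The 2 were rpc82 and rpc40, both polymerase subunit genes. At an unadjusted p under 0.05, 10 members were lower and 1 was higher, against 10.5% and 10.1% of all tested probe sets. With the replicate number as a block 13 members fell and 2 rose, or 27.1% and 4.17% of them, where 12.8% of all probe sets were called lower and 11.3% higher. The genes that fell with the block included 4 of the 6 members particular to RNA polymerase I. They also included 2 of 3 of the initiation trimer of RNA polymerase III and all 3 measured subunits of eIF2B. The median difference was -0.15 over the 30 polymerase genes and -0.01 over the 18 translation genes, against -0.00 over the 2882 tested genes with a symbol. The differences ran from -0.40 to 0.38. They were below 0 for 34 members, or 70.8%, and above 0 for 14, where 52.6% and 47.4% of all tested probe sets lay below and above 0. In 4 of 4 numbered pairs 18 members, or 37.5%, were lower and 4 were higher, against 25.1% and 20.8% of the probe sets with complete values.

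**Figure D1:**
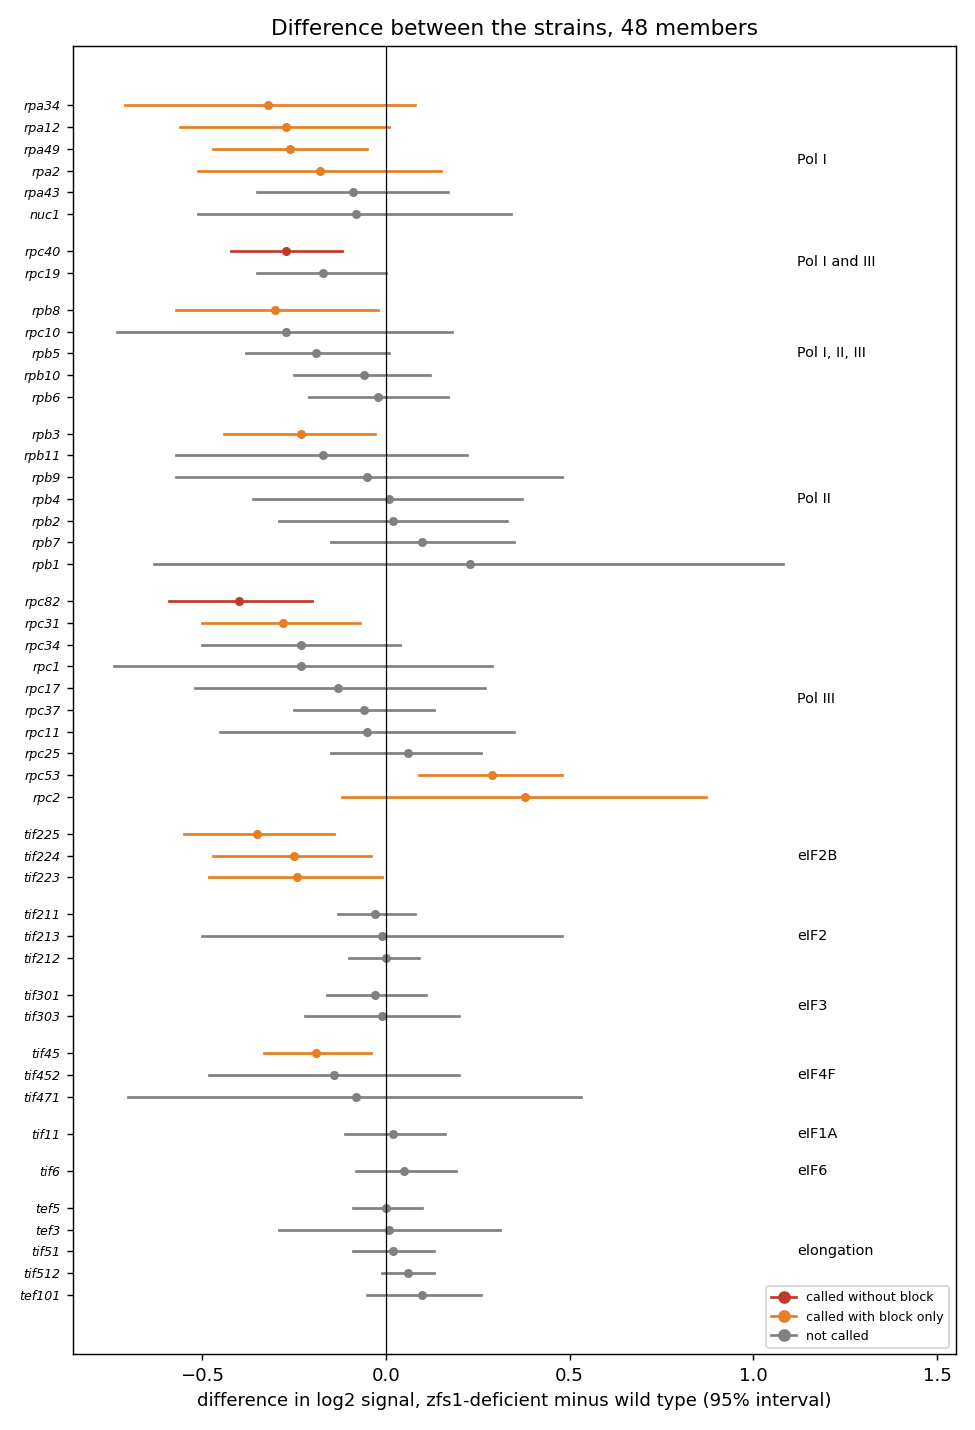
Difference in log2 signal between the strains (horizontal axis, zfs1-deficient minus wild type, with the 95% interval of the fit without a block) for the 48 genes, grouped by complex. Red marks the 2 genes called without the block, orange those called only with it, and grey the 33 called in neither fit. The points of RNA polymerase I and of eIF2B all lie left of 0, and most elongation and eIF2 or eIF3 genes lie at 0 with short intervals.

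The 6 members particular to RNA polymerase I were all lower on average in the zfs1-deficient strain, by 0.08 to 0.32, with a median of -0.22. A further subunit gene of this enzyme, ker1, which the symbol rule does not match, went the other way. It was higher by 0.16 (adjusted p = 0.728 without the block and 0.187 with it). None of the 6 members passed the test without the block. With it, where 12.8% of all probe sets fell, 4 of them fell: rpa34, rpa12, rpa49 and rpa2. rpa49 (SPAC2F3.03C) encodes a subunit that pairs with the product of rpa34 in a dimer that aids initiation and elongation. It had signals of 10.85, 10.68, 10.86 and 10.57 in zfs1-deficient replicates 1 to 4, against 11.11, 10.89, 11.05 and 10.96 in wild type. Every zfs1-deficient array lay below every wild-type array. The difference was -0.26 ± 0.09 (SE, n = 4 per strain; adjusted p = 0.142 without the block and 0.0142 with it).

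rpa34 (SPBC11G11.05) had signals of 10.47, 10.18, 10.50 and 9.89 in zfs1-deficient cultures, against 10.83, 10.47, 10.79 and 10.22 in wild type. The groups overlapped, but each zfs1-deficient array was below the wild-type array of the same number. Its difference was -0.32 ± 0.18 (SE) without the block and -0.32 ± 0.06 with it (adjusted p = 0.345 and 0.00651). It was -0.31 without both replicate 4 arrays (adjusted p = 0.135) and -0.193 without zfs1-deficient replicate 4 alone. rpa12 (SPCC1259.03), the small zinc ribbon subunit, behaved differently in replicate 4, which was the highest array of each strain. It had 10.49, 10.30, 10.56 and 10.91 in zfs1-deficient cultures and 10.83, 10.77, 10.77 and 10.99 in wild type, a difference of -0.27 ± 0.13 (SE; adjusted p = 0.259, and 0.0289 with the block). The groups overlapped through zfs1-deficient replicate 4, and without both replicate 4 arrays the difference was -0.34 (adjusted p = 0.0329).

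The large subunits of RNA polymerase I differed less. rpa2 (SPBP23A10.07), the second largest subunit, differed by -0.12, -0.22, -0.16 and -0.22 in the 4 numbered pairs, a mean of -0.18 ± 0.15 (SE; adjusted p = 0.545, and 0.0286 with the block). It was -0.17 without both replicate 4 arrays (adjusted p = 0.157), and -0.058 without zfs1-deficient replicate 4 and -0.287 without wild-type replicate 4. nuc1 (SPBC4C3.05C), the largest subunit, had 11.92, 11.71, 11.94 and 11.24 in zfs1-deficient cultures and 11.94, 11.81, 12.06 and 11.33 in wild type. Its difference was -0.08, with a 95% interval from -0.51 to 0.34, and it was not called with the block either (adjusted p = 0.153). Without both replicate 4 arrays it was again -0.08. The stalk gene rpa43 differed by -0.09 (adjusted p = 0.310 with the block).

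Among the subunits that RNA polymerase I shares with other polymerases, rpc40 fell. rpc40 (SPBC1289.07C) encodes an assembly subunit common to RNA polymerases I and III, the partner of the rpc19 product. Its signal was 11.34, 11.31, 11.41 and 11.56 in zfs1-deficient cultures, against 11.65, 11.68, 11.71 and 11.68 in wild type. The groups did not overlap, and the wild-type arrays lay within 0.07 of each other. The difference was -0.27 ± 0.07 (SE; adjusted p = 0.0472, and 0.00827 with the block), a ratio of 0.828. Leaving out 1 array ended the call in 7 of 8 fits (highest adjusted p = 0.151), and it was kept without zfs1-deficient replicate 4. It was also lost under quantile normalisation, without the variance trend and without the dimmest 25% of probe sets.

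rpc19 (SPAC1687.01) pointed the same way as its partner, at 11.35, 11.17, 11.36 and 11.53 in zfs1-deficient cultures and 11.58, 11.50, 11.55 and 11.50 in wild type. In replicates 1 to 3 it was lower without zfs1, and in replicate 4 slightly higher. The difference of -0.17 ± 0.08 was not called in either fit (adjusted p = 0.251, and 0.0748 with the block), but was -0.25 without both replicate 4 arrays (adjusted p = 0.0465).

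The 5 subunits common to all 3 enzymes had differences from -0.30 to -0.02, all below 0. rpb8 (SPBC14C8.12) was the 1 called with the block, at 10.44, 10.51, 10.42 and 10.69 in zfs1-deficient cultures and 10.75, 10.56, 10.84 and 11.10 in wild type (-0.30 ± 0.12, SE; adjusted p = 0.208, and 0.0239 with the block). rpb5 was lower by 0.19 with groups that did not overlap, but was not called (adjusted p = 0.269, and 0.0719 with the block). rpc10, the shared zinc-binding subunit known elsewhere as Rpb12, differed by -0.27, and its zfs1-deficient arrays spread from 9.51 to 10.56. rpb10 and rpb6 differed by -0.06 and -0.02. Over all members, the arrays did not overlap and were lower without zfs1 for 7, or 14.6%, against 7.71% of all tested probe sets. These were rpa49, rpc40, rpb5, rpb3, rpc82, rpc31 and tif225. The 1 member higher with no overlap was rpc53, against 7.83% of all probe sets.

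**Figure D2:**
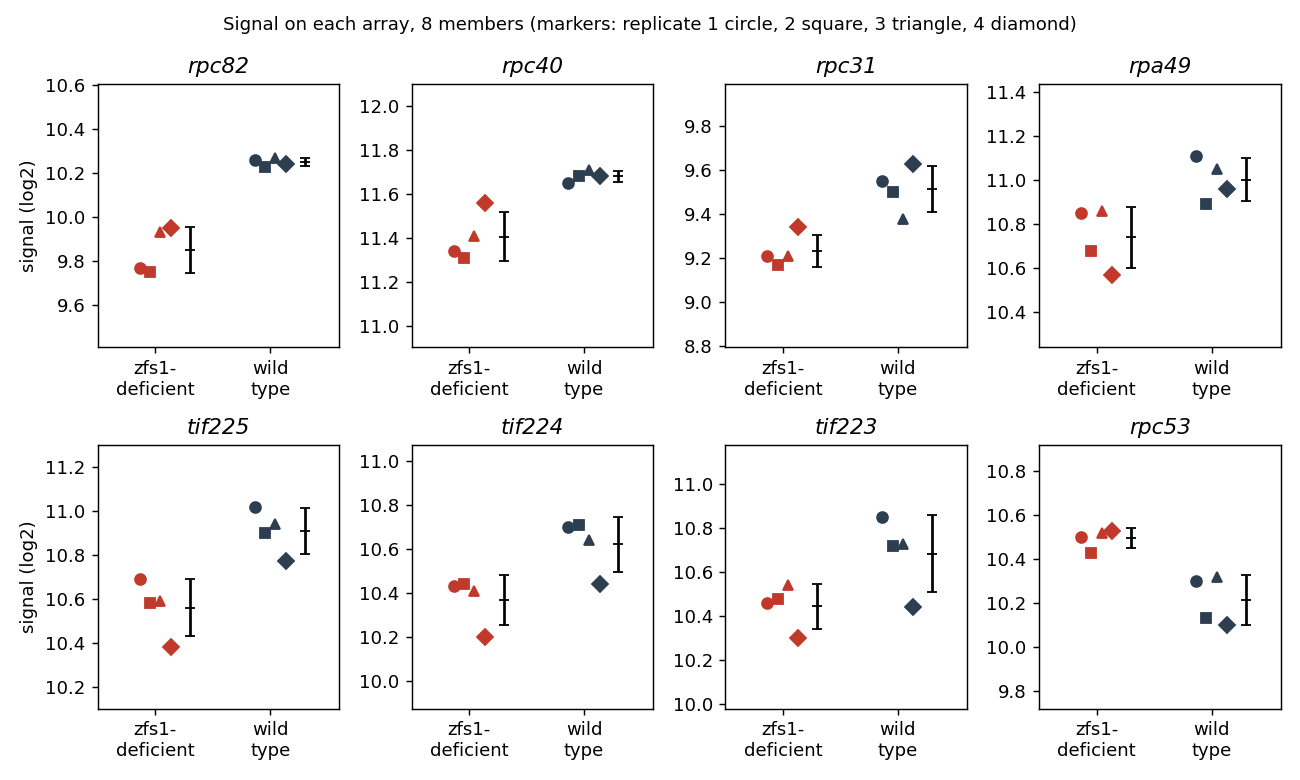
Log2 signal (vertical axes, each spanning 1.2 units) of 8 members in zfs1-deficient (red) and wild-type (dark) cultures, with mean and SD at the right of each group and a marker shape per replicate number. The zfs1-deficient arrays lie below the wild-type arrays for rpc82, rpc40, rpc31, rpa49 and tif225 and above them for rpc53, while tif224 and tif223 overlap only through the low wild-type replicate 4 array.

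The 7 subunits particular to RNA polymerase II showed no common direction, 3 below and 4 above 0, with a median difference of 0.01. rpb3 (SPCC1442.10C), an assembly subunit that stands in RNA polymerase II where the rpc40 product stands in the other 2 enzymes, was the 1 called with the block. It had 9.80, 9.86 and 9.86 in zfs1-deficient replicates 1, 3 and 4, and replicate 2 differed by -0.12 from the wild-type array of its number, against 10.02, 10.13, 10.07 and 10.23 in wild type. The groups lay close together without overlapping, and the difference was -0.23 ± 0.09 (SE; adjusted p = 0.180, and 0.0415 with the block). Its assembly partner rpb11, the counterpart of rpc19, differed by -0.17 (adjusted p = 0.154 with the block).

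rpb1 (SPBC28F2.12), the largest subunit, which carries the repetitive C-terminal domain, had 10.90, 10.56, 10.79 and 10.04 in zfs1-deficient cultures and 10.40, 10.98, 10.89 and 9.11 in wild type. Replicate 4 was the lowest array of each strain, and the wild-type one was the lowest of all. The difference was 0.23, with an interval from -0.63 to 1.08, the widest among the members, and it was -0.01 without both replicate 4 arrays. rpb2 (SPAC23G3.01), the second largest subunit, differed by 0.02 with an interval from -0.29 to 0.33, and by 0.08 without both replicate 4 arrays. The stalk genes rpb7 and rpb4 differed by 0.10 (adjusted p = 0.659) and 0.01 (adjusted p = 0.992). rpb9, a small zinc ribbon subunit with the lowest signals of the set, ran from 8.57 to 9.41 in zfs1-deficient cultures and from 8.34 to 9.27 in wild type, so that a difference of -0.05 lay well within its spread.

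Of the 10 genes particular to RNA polymerase III, 7 had a difference below 0 and 3 above it. rpc82 fell in both fits, rpc31 fell with the block, and rpc53 and rpc2 rose with the block. rpc82 (SPAPB1E7.03) encodes a subunit of the trimer with which the enzyme contacts its initiation factors, and it had the lowest difference of all 48 members and, without the block, the smallest adjusted p. Its signals were 9.77, 9.75, 9.93 and 9.95 in zfs1-deficient cultures, against 10.26, 10.23, 10.27 and 10.24 in wild type. The 4 wild-type arrays were nearly identical, and all zfs1-deficient arrays lay below them. The difference was -0.40 ± 0.09 (SE; adjusted p = 0.0310, and 0.00541 with the block), a ratio of 0.759. Without both replicate 4 arrays it was -0.43 (adjusted p = 0.0135). Leaving out 1 array ended the call in 6 of 8 fits, with a highest adjusted p of 0.111, and it was kept without replicate 4 of either strain.

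The other trimer genes were also lower on average. rpc31 (SPBC839.12) had 9.21, 9.17, 9.21 and 9.34 in zfs1-deficient cultures and 9.55, 9.50, 9.38 and 9.63 in wild type, with no overlap (-0.28 ± 0.10, SE; adjusted p = 0.132, and 0.0277 with the block). rpc34 (SPCC290.02) was lower in 3 of 4 numbered pairs and overlapped through wild-type replicate 3, with a difference of -0.23 ± 0.12 (SE; adjusted p = 0.313, and 0.123 with the block).

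Of the dimer that acts in termination, rpc53 was higher and its partner rpc37 showed no difference beyond its spread. rpc53 (SPCC18.07) had 10.50, 10.43, 10.52 and 10.53 in zfs1-deficient cultures, against 10.30, 10.13, 10.32 and 10.10 in wild type. All zfs1-deficient arrays lay above all wild-type arrays, and the difference was 0.29 ± 0.09 (SE; adjusted p = 0.0939, and 0.0170 with the block). rpc37 (SPCC330.13) differed by -0.06, with an interval from -0.25 to 0.13. rpc2 (SPAC4G9.08C), the second largest subunit, had 10.50, 10.15, 10.32 and 9.95 in zfs1-deficient cultures and 10.13, 9.84, 10.23 and 9.21 in wild type. It was higher in 4 of 4 numbered pairs, and the difference was 0.38 ± 0.22 (SE; adjusted p = 0.374, and 0.0327 with the block). Both calls were lost with the block when both replicate 4 arrays were left out, where 0 members rose by limma, and both unblocked differences were then smaller, at 0.24 for rpc53 and 0.25 for rpc2. Without wild-type replicate 4 alone the rpc2 difference was 0.16.

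The remaining RNA polymerase III genes were called in neither fit. The largest subunit gene rpc1 differed by -0.23, with an interval from -0.74 to 0.29 (adjusted p = 0.0822 with the block). It was -0.056 without zfs1-deficient replicate 4, -0.423 without wild-type replicate 4 and -0.25 without both (adjusted p = 0.153). The stalk genes rpc17 and rpc25 differed by -0.13 and 0.06, and rpc11, needed for cleavage of the nascent RNA, by -0.05. Over the stalks of the 3 enzymes, 0 of the 5 genes among the members passed in either fit. These were rpa43, rpb4, rpb7, rpc17 and rpc25, and their lowest adjusted p was 0.659 without the block and 0.280 with it.

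Among the translation factors, the exchange factor eIF2B differed most. All 3 of its measured subunit genes fell with the block, and none of the 15 other translation genes did except tif45. In that fit 12.8% of all probe sets fell, and without the block none of the 3 was called. tif225 (SPAC8C9.15C), the epsilon subunit, which holds the catalytic domain, had 10.69, 10.58, 10.59 and 10.38 in zfs1-deficient cultures and 11.02, 10.90, 10.94 and 10.77 in wild type. No zfs1-deficient array reached the lowest wild-type array. The difference was -0.35 ± 0.09 (SE; adjusted p = 0.0629, and 0.00341 with the block), a ratio of 0.787.

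The delta subunit gene tif224 (SPAC21E11.06) had 10.43, 10.44, 10.41 and 10.20 in zfs1-deficient cultures and 10.70, 10.71, 10.64 and 10.44 in wild type. It was lower in 4 of 4 numbered pairs by similar amounts, with replicate 4 low in both strains, and the difference was -0.25 ± 0.10 (SE; adjusted p = 0.178, and 0.0142 with the block). The gamma subunit gene tif223 (SPAC4D7.09) had 10.46, 10.48, 10.54 and 10.30 in zfs1-deficient cultures and 10.85, 10.72, 10.73 and 10.44 in wild type, a difference of -0.24 ± 0.11 (SE; adjusted p = 0.231, and 0.0274 with the block). Without both replicate 4 arrays the 3 genes passed without the block too, at -0.33 (adjusted p = 0.0175) for tif225, -0.26 (0.0323) for tif224 and -0.28 (0.0347) for tif223. There 5.58% of all probe sets were called lower.

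The substrate of eIF2B showed no such difference. The alpha, beta and gamma subunit genes of eIF2 are tif211, tif212 and tif213. tif211 (SPAC3G9.09C), whose product carries the serine phosphorylated under stress, had 12.25, 12.22, 12.32 and 12.23 in zfs1-deficient cultures and 12.34, 12.23, 12.32 and 12.23 in wild type. Its 95% interval ran from -0.13 to 0.08, and that of tif212 from -0.10 to 0.09. tif213 had a wide interval, from -0.50 to 0.48, and signals of 12.33 to 12.37 in zfs1-deficient replicates 1 to 3 and 11.63 in replicate 4, against 12.34 to 12.44 and 11.56 in wild type. With the block its adjusted p was 0.853, and without both replicate 4 arrays its difference was -0.04.

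Of the eIF4F genes, tif45, for the cap-binding protein eIF4E, was called with the block. tif45 (SPAC16E8.15) had 11.31, 11.30, 11.30 and 11.42 in zfs1-deficient cultures, against 11.52, 11.41, 11.62 and 11.51 in wild type. The groups met only at zfs1-deficient replicate 4, and the difference was -0.19 ± 0.07 (SE; adjusted p = 0.153, and 0.0384 with the block). The second eIF4E gene, tif452 (SPBC1709.18), differed by -0.14 with an interval from -0.48 to 0.20. tif471 (SPAC17C9.03), for the eIF4G scaffold, had 12.05, 11.92, 12.11 and 11.08 in zfs1-deficient cultures and 12.14, 12.01, 12.17 and 11.16 in wild type. In the 4 numbered pairs the strains differed by -0.09, -0.09, -0.06 and -0.08, and the mean difference was -0.08 (adjusted p = 0.909, and 0.138 with the block). Without both replicate 4 arrays it was again -0.08.

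None of the other initiation and elongation factors was called in either fit, and their differences ran from -0.03 to 0.10. For 8 of the 18 translation genes the whole 95% interval lay within 0.2 of 0, a bound chosen after the values were seen. This held for 0 of the 30 polymerase genes. The 2 classes differ in signal level, however. The wild-type means of these 8 genes ran from 11.89 to 12.96, and the brightest polymerase gene, nuc1, was at 11.79. Whether the short intervals go with high signal was not tested. The 8 were tif211 and tif212 of eIF2, tif301 of eIF3, tif11 (eIF1A), tif6 (eIF6, which keeps the large ribosomal subunit from joining too early), both eIF5A genes tif51 and tif512, and tef5, a subunit of the factor that exchanges the nucleotide of eEF1A. tif512 had 13.01, 13.03, 13.05 and 13.00 in zfs1-deficient cultures and 12.97, 12.92, 13.02 and 12.93 in wild type, a difference of 0.06 ± 0.03 (SE; adjusted p = 0.332). tif6 and tif11 differed by 0.05 and 0.02. The eIF3 genes tif301 (eIF3a) and tif303 (eIF3c) differed by -0.03 and -0.01, with an interval from -0.22 to 0.20 for tif303.

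tef101 (SPCC794.09C), for eEF1A, which brings aminoacyl-tRNA to the ribosome, had 12.48, 12.62, 12.47 and 12.30 in zfs1-deficient cultures and 12.38, 12.41, 12.41 and 12.24 in wild type. It was higher in 4 of 4 numbered pairs, but the difference of 0.10, with an interval from -0.05 to 0.26, was called in neither fit (adjusted p = 0.446, and 0.0701 with the block). eEF1A is encoded by near-identical genes, so their transcripts may share probes, and a further probe set is listed for 3 of them together. That probe set differed by 0.06, with an interval from -0.06 to 0.17 (adjusted p = 0.596). tef3, for the fungal elongation factor eEF3, differed by 0.01, with an interval from -0.29 to 0.31, and by -0.01 without both replicate 4 arrays.

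**Figure D3:**
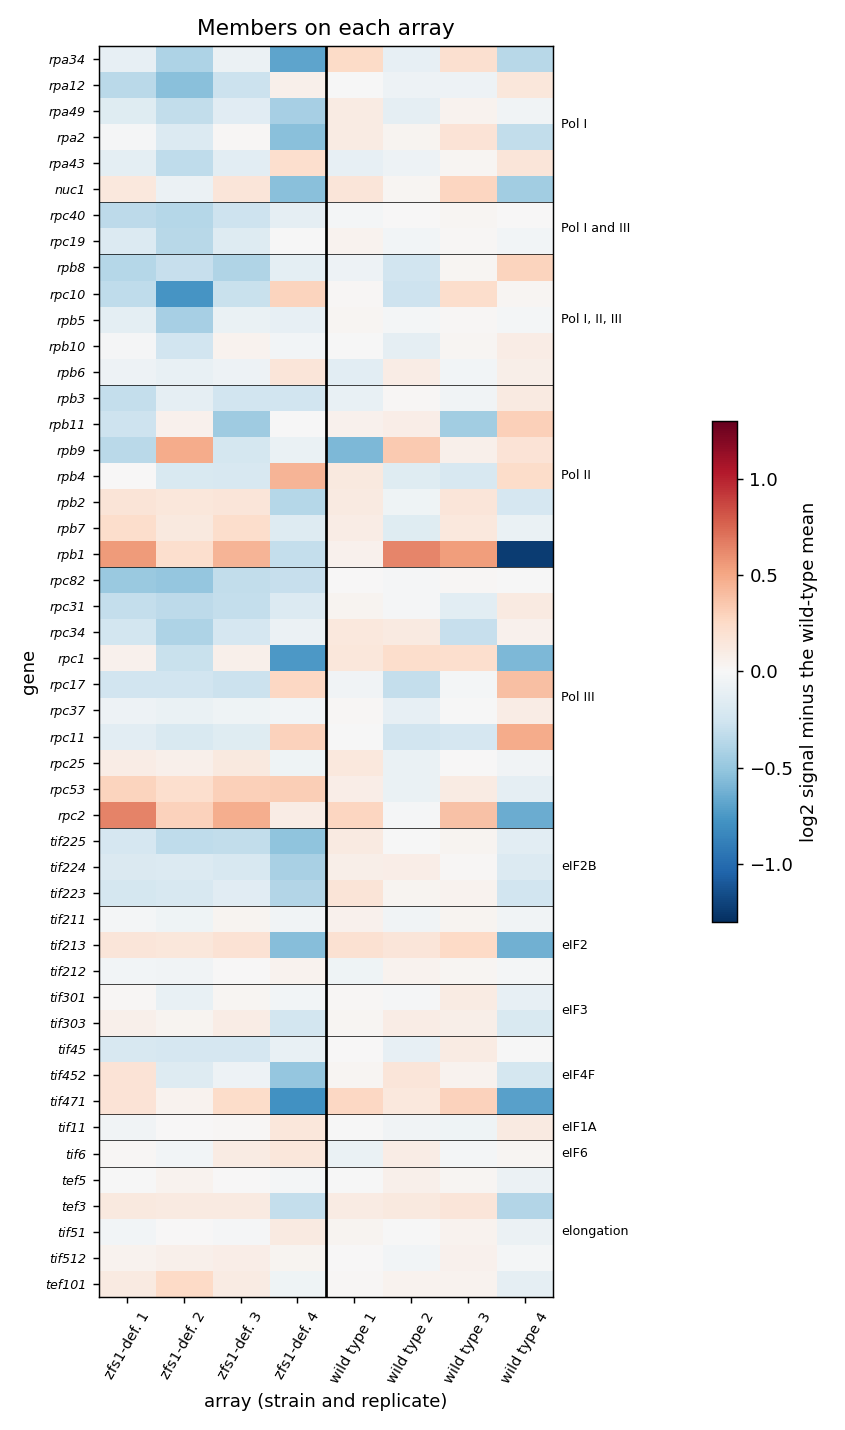
Log2 signal of each of the 48 genes (rows, grouped by complex) on each array (columns, zfs1-deficient replicates 1 to 4, then wild type), minus the gene's wild-type mean. rpc82, rpc31 and the eIF2B genes are below their wild-type mean in all 4 zfs1-deficient columns, and nuc1, rpc1, tif213 and tif471 are far below it in both replicate 4 columns.

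Replicate 4 of both strains differed from its companions in the level of many members, the large polymerase subunits among them. This pattern was seen in the data and is given as a description with 1 array per strain. For all 6 genes of the largest and second largest subunits, nuc1, rpa2, rpb1, rpb2, rpc1 and rpc2, replicate 4 lay below the mean of the other 3 arrays in both strains, with deviations from -1.64 to -0.29. Their median deviation was -0.57 in zfs1-deficient and -0.69 in wild-type replicate 4. Of the 24 other polymerase genes, replicate 4 lay above the others in both strains for 14 and below in both for 4. Over all probe sets with complete values, 41.4% lay below in both strains and 38.0% above in both.

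Among translation genes replicate 4 lay below in both strains for 13 of 18. tif471 deviated by -0.95 in each strain, tif213 by -0.71 in zfs1-deficient and -0.82 in wild-type cultures, and tef3 by -0.43 in zfs1-deficient and -0.50 in wild-type cultures. Replicate 4 was more than 0.3 below in both strains for 10 members, or 20.8%, against 15.4% of all such probe sets. It was above in zfs1-deficient and wild-type cultures by 0.46 and 0.64 for rpc11, by 0.53 and 0.51 for rpc17, and by 0.57 and 0.31 for rpb4. rpc10 deviated by 0.74 in the zfs1-deficient strain and by 0.04 in wild type. The standard error of the strain difference of tif213 was 0.22 without the block and 0.04 with it.

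**Figure D4:**
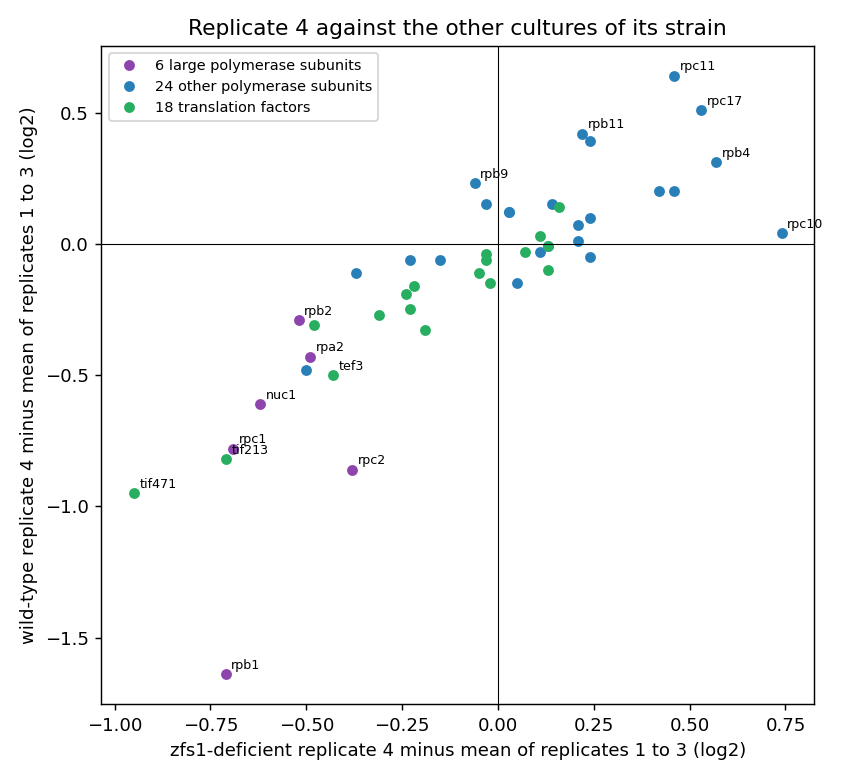
Deviation of replicate 4 from the mean of replicates 1 to 3 of the same strain (log2), in zfs1-deficient (horizontal) and wild-type cultures (vertical), 1 point per gene. The 6 large polymerase subunits (purple) all lie in the lower left, with tif471 and tif213 among the translation factors (green), and rpc11, rpc17 and rpb4 lie in the upper right.

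Without both replicate 4 arrays 7 members fell and 0 rose by limma, or 14.6% of the members, where 5.58% of all probe sets were called lower and 6.69% higher. With the block on the same 6 arrays 11 fell, or 22.9%, and 0 rose, against 9.25% and 8.65% of all probe sets, and 9 of these 11 were among the 13 of the blocked fit on 8 arrays. The 4 that were lost were rpa2, rpb3, rpb8 and rpc31, and the 2 that were gained were rpc10 and rpc19. Array weights, which gave the replicate 4 arrays least weight, called 14 members lower, 11 of them shared with the blocked fit, and 1 higher, rpc53, against 15.2% and 15.3% of all probe sets. The weights were 6.546 and 5.499 for zfs1-deficient replicates 1 and 3, and from 0.176 to 2.262 for the other arrays. In the zfs1-deficient strain this fit therefore rests largely on replicates 1 and 3. These arrays lay close together for many members, for example at 11.92 and 11.94 for nuc1 and 10.19 and 10.20 for rpc1. They lay further apart for others, such as rpb4 at 10.58 and 10.36. Whether they are as independent as the other cultures was not tested.

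Related genes whose symbols the rule does not match were counted from lists drawn up by function, and 0 were called by limma without the block. The lists held 83 measured genes, and listed genes without a match among the tested genes are not counted. The counts with the block follow, to be read against 11.3% of all probe sets called higher and 12.8% called lower in that fit. Of 8 RNA polymerase I initiation factors 1 fell, rrn11 (-0.26; adjusted p = 0.0477 with the block), and of 8 RNA polymerase III factors 1 fell, sfc6, a subunit of TFIIIC (-0.27; 0.0332). Of 17 general initiation factors of RNA polymerase II 3 rose and 0 fell. These 3 encode subunits of TFIIH, which opens promoter DNA: rad15 (0.49; 0.00682), tfb1 (0.45; 0.00974) and tfb4 (0.31; 0.0314). tfb1 had 9.51, 9.46, 9.49 and 9.43 in zfs1-deficient cultures and 9.05, 8.88, 9.29 and 8.87 in wild type, and its adjusted p without the block was 0.0521. Of 16 elongation and C-terminal domain factors 1 rose, ell1 (0.36; 0.0105), and 1 fell, lsc1 (-0.37; 0.0248). The further RNA polymerase I subunit gene ker1 differed by 0.16 (0.187).

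Of 10 further translation factors 3 fell with the block and 1 rose, where 12.8% and 11.3% of all probe sets did. Those that fell were sce3, for eIF4B (-0.21; adjusted p = 0.0364), rli1, for a ribosome recycling factor (-0.16; 0.0475), and sup35, for the release factor eRF3 (-0.12; 0.0453). sui1, for eIF1, rose (0.14; 0.0224). Of 39 listed ribosome assembly genes 17 were measured. Of these 17, 6 fell with the block and 0 rose, against 12.8% and 11.3% of all probe sets. For 15 of the 17 the difference was below 0, against 52.6% of all probe sets, with a median of -0.19. Among them nop52 was lower by 0.35 (adjusted p = 0.00425 with the block), and ebp2 by 0.31 (0.0199).

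Of 6 regulators of translation factors 1 rose and 1 fell with the block, and both encode kinases of the eIF2 alpha subunit. hri1 (SPAC20G4.03C) had 9.03, 8.63, 9.18 and 9.64 in zfs1-deficient cultures, against 7.89, 7.75, 8.49 and 8.59 in wild type. The groups did not overlap, and the difference was 0.94 ± 0.25 (SE; adjusted p = 0.0629, and 9.37e-04 with the block). gcn2 (SPBC36B7.09) had 9.47, 9.82, 9.48 and 9.11 in zfs1-deficient cultures and 9.94, 10.13, 10.04 and 9.52 in wild type, a difference of -0.44 ± 0.18 (SE; adjusted p = 0.196, and 0.00499 with the block). Its groups overlapped, and it was lower in the zfs1-deficient culture of each pair. The second kinase gene of the HRI type, hri2, differed by -0.02 (adjusted p = 0.923 with the block).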

How the data were processed

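RNA was measured on 8 Affymetrix arrays, 4 per strain. Per the labels' protocols, biotin-labelled cRNA was made from 1 µg of total RNA, 5 µg of it were hybridised for 16 h, and signals came from the GeneChip Operating Software. The labels name a nematode array, whereas the probe table pairs the probe sets with fission yeast genes. The authors deposited 1 value per probe set and array, read here as log10 signal. The base is inferred, since array medians lay between 2.890 and 2.901 and maxima between 3.94 and 3.99. The probe summary and the scaling are not given in the sources used here. Values were converted to log2 (array medians 9.61 to 9.64) and used as deposited. The number of arrays limits the precision.

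The 2-sided strain comparison used limma 3.58.1 under R 4.3.3, with lmFit and a trended eBayes, over 4969 of 4994 yeast probe sets, those with at least 2 values per strain, with Benjamini-Hochberg adjustment over all of them. The fit did not include 17 reporter controls. The unblocked fit was tested on simulated data with independent arrays. The blocked fit, an effect shared by replicates of like number and shifts as small as the members' differences were not simulated. Figures were drawn with matplotlib 3.10.9. Symbols came from a probe table and were brought up to date by gene ID from the ASM294v3 gene table, which held all 48 members. tef101 was found by its current symbol only, and tif301 and tif303 are tif32 and tif33 in the probe table. Where a gene had several probe sets, the one of highest mean was used, and each of the 48 members had 1. Of 61 gene table symbols that meet the rule, 13 had no probe set paired with them alone and were not analysed here, among them 2 eEF1A genes and tif1.

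The members, the related lists and the tests were chosen with earlier results of these data known. The named genes were every member called with or without the block, the 4 highest and 4 lowest differences of polymerase and of translation genes, the members of highest and lowest signal, and the large subunits and eEF1A. Other members given array by array, and the related genes called only with the block, were chosen after their values were seen. Promoter motifs need sequence and were not analysed here.

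No label states that cultures of like number shared a day. Across 4914 probe sets, the correlation between the strains' deviations from their means was 0.37, 0.33, 0.26 and 0.70 for numbers 1 to 4. All exceeded 0.1, and pairing was assumed on that basis. Some arrays of unlike number exceeded 0.1 too, so this bound does not set like numbers apart. The deviations of zfs1-deficient replicate 3 correlated at 0.41 with those of wild-type replicate 1, above the 0.26 for its own number. The calls made only with the block, and the counts over numbered pairs, therefore rest on an assumed pairing. The sample titles name the arrays of a strain as biological replicates. Alternatives were a replicate block, median centring, quantile normalisation, an offset of 64, a filter on the dimmest 25%, array weights, no variance trend, the mean of all probe sets of a gene, and arrays left out.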

Additional observations from a re-analysis of the deposited data

Results flagged for a closer look

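In 96 groups of 4 arrays, 1 per member and strain, 13 held an array far from its 3 companions, by Dixon's test at the 95% level. Chance gives about 1 in 20 for a single group. The 96 groups come from the same arrays and are not independent, so the 13 cannot be set against that rate. No share over all probe sets is given for this test, so the count is not shown to be particular to the members. Replicate 4 was the outlying array in 12 of the 13 groups. In the zfs1-deficient strain it was low for rpb2 at 10.66, tif213 at 11.63, tif224 at 10.20 and tef3 at 12.28, and high for rpb6 at 11.43, rpc17 at 9.76, rpc11 at 10.85 and tif45 at 11.42. In wild type it was low for tif213 at 11.56, tif471 at 11.16, rpc1 at 9.55 and tef3 at 12.21. The 1 other was zfs1-deficient replicate 2 of rpb5, at 10.79 against 11.10 to 11.14 on the other 3 arrays.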

How the results depend on the processing

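Counts of members called lower moved most: 2 without the block became 13 with the replicate block, 14 with array weights, 7 without both replicate 4 arrays and 11 with the block on those arrays (an alternative added after the data were seen), and 1 under quantile normalisation, without the dimmest 25% of probe sets or without the variance trend. Members called higher were 2 with the block and 1 with array weights against 0. Over all probe sets, 177 higher and 110 lower became 563 and 638 with the block, 761 and 756 with array weights, 332 and 277 without both replicate 4 arrays, and 429 and 459 with the block on those. With 1 array left out, members called lower ran from 0 to 3 and higher were 0, and all probe sets ran from 75 to 184 higher and 28 to 125 lower. The median difference of the polymerase genes then ran from -0.186 to -0.106. That of the translation genes ran from -0.07 to 0.011, so its sign was not fixed. Averaging the probe sets of a gene changed no member, since each had 1. The planned promoter motif search was not run. The cause of these changes was not tested.

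Of the 26 named members, for which all alternatives were run, 6 changed sign under at least 1, and none of the 6 was called with or without the block. rpb1 was -0.008 without both replicate 4 arrays, with and without the block. rpb9 was 0.012 with array weights and 0.024 without both replicate 4 arrays in either fit. tif452 was 0.011 and tif11 -0.003 with array weights. With 1 array left out, differences ran from -0.185 to 0.438 for rpb1, from -0.051 to 0.151 for rpb2, from -0.236 to 0.072 for nuc1, from -0.015 to 0.061 for tif11 and from -0.242 to 0.069 for rpb9. Of the other members, without both replicate 4 arrays rpb4 was -0.06, tif51 -0.04, tef3 -0.01 and tef5 -0.01, where the fit on all 8 arrays gave differences above 0. The blocked fit changed no call other than those of the 13 members given in the report as called only with it.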
